A study of Mus musculus with 2 samples.

Results

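The regions described here are accessible chromatin regions at the ends of noncoding RNA genes in mouse hematopoietic stem cells. A region was taken when it lay within 1000 bp of an annotated start or end of a lncRNA, miRNA, snoRNA, snRNA or tRNA gene and not within 1000 bp of an end of a protein-coding gene. A noncoding gene with regions only near coding gene ends thus counts here as a gene without a region. On chromosomes 1 to 19 and X, 1587 of 31831 control regions and 528 of 13001 H1C regions met the rule, which used positions only and no measured value. The study behind them is about DEK and how Fanconi anemia cells tolerate replication stress.

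Open chromatin was mapped by ATAC-seq, where a transposase places sequencing adapters into accessible DNA. The cells were bone marrow hematopoietic stem cells of the CD48-CD150+LSK phenotype from wild-type C57BL/6J mice, and about 1000 cells entered each library. Both groups carried an MSCV retrovirus, which was empty in the control group and carried H1C in the other, where the treatment is given as overexpression. H1C is the linker histone gene H1f2. The sources used here do not give age, time after transduction or the number of animals. Each group had 1 library, so the 2 libraries are compared and not the conditions, no difference has a replicate check and no p-value is given. Intervals are exact 95% intervals that cover counting error only, and amplified fragments are not independent molecules.

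Long noncoding RNAs (lncRNAs) are transcribed by RNA polymerase II, and some act in the nucleus on neighbouring genes or as structural scaffolds. Other lncRNA genes serve as hosts, because snoRNAs, which guide the modification of ribosomal RNA, or microRNA hairpins are cut from their transcripts. Spliceosomal snRNAs have their own compact promoters, and tRNA genes are read by RNA polymerase III from promoter elements inside the gene. Linker histones sit at the entry and exit points of nucleosomal DNA and favour compact chromatin.

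Promoter sequences of 5 lncRNA genes are shown first because the share of lncRNA promoters that stayed open in the H1C library differed by their CpG content. They come from RefSeq, build GRCm38.p6, run 5′ to 3′ on the strand of the gene, and span 250 bases before to 50 bases after the annotated start. Capitals mark matches, on either strand, to the motifs named with the motif results. Chaserr lies at chr7:73558346-73558645 (minus strand), Snhg8 at chr3:123508287-123508586 (minus), Kcnq1ot1 at chr7:143296498-143296797 (minus), Jpx at chrX:103493308-103493607 (plus) and Morrbid at chr2:128429302-128429601 (minus). The first 3 lay under a control region that was kept in H1C, and most bases of the last 2 (254 and 253 of 300) lay under a control region with no H1C counterpart.
Chaserr: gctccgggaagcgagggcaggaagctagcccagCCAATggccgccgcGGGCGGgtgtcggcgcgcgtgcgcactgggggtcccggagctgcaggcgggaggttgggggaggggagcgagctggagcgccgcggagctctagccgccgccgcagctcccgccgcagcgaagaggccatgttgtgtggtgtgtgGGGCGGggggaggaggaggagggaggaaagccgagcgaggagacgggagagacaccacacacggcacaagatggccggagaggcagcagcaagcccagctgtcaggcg
Snhg8: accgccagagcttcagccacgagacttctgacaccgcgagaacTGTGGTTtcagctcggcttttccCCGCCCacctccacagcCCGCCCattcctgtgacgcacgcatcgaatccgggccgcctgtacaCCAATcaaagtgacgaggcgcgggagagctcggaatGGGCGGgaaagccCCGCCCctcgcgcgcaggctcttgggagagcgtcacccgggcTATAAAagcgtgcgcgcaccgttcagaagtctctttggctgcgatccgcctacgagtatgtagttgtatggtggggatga
Kcnq1ot1: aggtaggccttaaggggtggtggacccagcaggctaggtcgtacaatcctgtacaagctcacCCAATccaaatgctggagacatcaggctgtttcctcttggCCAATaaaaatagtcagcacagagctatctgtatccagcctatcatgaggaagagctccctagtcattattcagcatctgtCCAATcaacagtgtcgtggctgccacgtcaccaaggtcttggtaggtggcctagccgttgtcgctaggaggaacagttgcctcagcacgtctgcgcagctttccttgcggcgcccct
Jpx: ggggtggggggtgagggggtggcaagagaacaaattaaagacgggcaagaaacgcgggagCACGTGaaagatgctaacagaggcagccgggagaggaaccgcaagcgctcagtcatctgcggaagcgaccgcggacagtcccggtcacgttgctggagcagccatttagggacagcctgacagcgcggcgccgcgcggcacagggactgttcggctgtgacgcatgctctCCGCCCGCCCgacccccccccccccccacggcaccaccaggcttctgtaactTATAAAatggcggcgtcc
Morrbid: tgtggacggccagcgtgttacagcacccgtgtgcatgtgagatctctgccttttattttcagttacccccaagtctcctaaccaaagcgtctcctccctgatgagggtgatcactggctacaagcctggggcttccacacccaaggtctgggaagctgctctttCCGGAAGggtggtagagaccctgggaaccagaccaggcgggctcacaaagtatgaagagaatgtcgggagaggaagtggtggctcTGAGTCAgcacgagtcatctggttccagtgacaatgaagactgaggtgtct
These windows hold 30 CpG dinucleotides in Chaserr, 30 in Snhg8, 9 in Kcnq1ot1, 27 in Jpx and 8 in Morrbid. Kcnq1ot1 and Jpx are shown because each goes against the pattern of its group, as given with the promoter results.

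Mature microRNA sequences are shown for the microRNAs of the blood list that had a region, and for miR-210, with the seed (bases 2 to 8) in capitals. Of 54 miRNA genes with a region in either list, 51 had a RefSeq sequence. The first 3 come from genes whose control region was kept in H1C, and the other 6 from genes with a region in control alone.
miR-132-3p: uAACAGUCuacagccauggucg
miR-212-3p: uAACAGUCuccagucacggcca
miR-210-3p: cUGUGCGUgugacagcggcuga
miR-142a-3p: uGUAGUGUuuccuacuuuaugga
miR-155-5p: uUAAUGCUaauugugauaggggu
miR-23a-3p: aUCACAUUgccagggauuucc
miR-27a-3p: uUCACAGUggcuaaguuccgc
miR-24-3p: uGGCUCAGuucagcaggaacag
miR-425-5p: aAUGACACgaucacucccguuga
miR-132-3p and miR-212-3p share the seed AACAGUC, and no other mature mouse name in the table has it. Their genes lie next to each other on chromosome 11 and shared 1 region. The genes of miR-23a, miR-27a and miR-24 also lie side by side, on chromosome 8, and shared 1 region, so these 3 genes are not independent of each other.

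Of the 1587 control regions, 463 were kept, meaning that at least 1 bp overlapped an H1C region. This was 29.2% (interval 26.9% to 31.5%), beside 34.1% for all control regions. The share was 62.9% at coding gene ends and 20.0% at regions near no gene end. In the other direction, 467 of the 528 H1C regions had a control counterpart (88.4%, interval 85.4% to 91.0%), beside 85.0% for all H1C regions. Because each library pools about 1000 cells, loss of accessibility in every cell and a smaller share of open cells cannot be told apart. Neither can be told apart from a difference in signal over background between the libraries or from signal below the calling threshold. With the control list shortened to the length of the H1C list by −log10 p, 58.8% of 645 regions were kept, beside 67.3% of all control regions.

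The kept share rose with the height of the control region. Height is given as the pileup, the number of reads or fragments stacked at the summit, which was solved from the deposited fold and −log10 p. At a pileup of 20 or less, 24 of 384 control regions were kept (6.25%), and above 20 up to 30 it was 9.96% of 522. Above 30 up to 40 the share was 30.0% of 290, and above 40 up to 60 it was 67.4% of 273. Above 60 up to 80, 81 of 83 were kept, and all 35 regions above 80 were kept. The 2 strong regions without an H1C counterpart were the more distant upstream region of Mir22hg and the region beside Mir142, both described further on.

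On average within the same pileup steps, the kept share at noncoding gene ends lay near that of regions at no gene end and below that of coding gene ends. Averaged over the steps, with each step weighted by its number of noncoding regions, the difference in kept share from coding gene ends was -8.66 percentage points, against -33.7 points without the steps. The difference from regions near no gene end was 0.46 points, against 9.2 points without the steps. That average joins differences of opposite sign. Noncoding ends were lower at a pileup of 20 or less (6.25% against 9.34%) and above 20 up to 30 (9.96% against 12.5%). They were higher in each step above 30, with 30.0% against 26.3% above 30 up to 40. In the step above 40 up to 60 the shares were 67.4% (interval 61.5% to 72.9%) at noncoding ends, 83.5% (82.1% to 84.9%) at coding ends and 60.6% (58.3% to 62.9%) near no gene end. In the lowest step noncoding and coding ends did not separate, at 6.25% (4.05% to 9.16%) and 6.13% (4.54% to 8.07%).

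**Figure D1:**
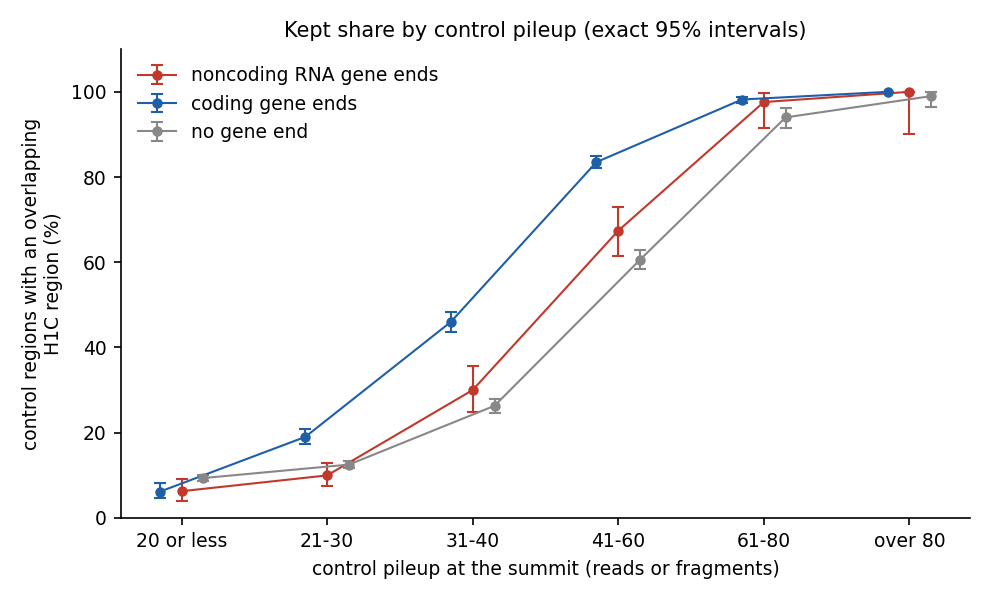
Share of control regions with an overlapping H1C region (percent, vertical axis) by control pileup at the summit (reads or fragments, horizontal axis), for regions at noncoding RNA gene ends (red), at coding gene ends (blue) and near no gene end (grey). Points are shares and bars exact 95% intervals. The red points run from 6.25% to 100% and lie below the blue points in the middle steps.

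In the columns of the control list, the regions had a median fold over local background of 4.32 (quartiles 3.61 and 5.60), a median −log10 p of 11.2 and a median −log10 q of 8.33. The median pileup was 28.0 (quartiles 21 and 40), the median width 327 bp, and the summit lay a median of 154 bp from the start of the region. The summit fell in the central part of the region, at 0.25 to 0.75 of its width, in 85.3% of regions. The H1C regions were alike in form, with medians of 4.11 for fold, 10.4 for −log10 p, 7.06 for −log10 q, 308 bp for width and 154 bp for summit offset. Since each list is read against its own background, these medians describe each list and show no change.

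Kept and lost control regions differed in height and width. The 463 kept regions had a median pileup of 48.0, a fold of 6.14 and a width of 505 bp. The 1124 regions in control alone had a median pileup of 24.0, a fold of 4.01 and a width of 288 bp. The 61 regions in H1C alone were the weakest group, with a median pileup of 20.0, a fold of 3.59 and a width of 245 bp. No region in H1C alone exceeded a pileup of 32.0, whereas regions in control alone reached 71.0.

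Nearly every kept region was lower in H1C. The median log2 ratio of H1C to control pileup was -0.84 (quartiles -1.05 and -0.54), after division by 1.10, the ratio of the genome backgrounds of the lists. This equals a linear ratio of 0.558. The ratio was below 0 for 442 of 463 kept regions (95.5%), beside 93.7% of all kept control regions. Divided by 0.869 instead, the ratio of the local backgrounds at shared summits, every log2 ratio rises by 0.34, and 403 of the 463 regions (87.0%) and 83.2% of all kept control regions lie below 0. A region counts as kept only when it was called in H1C, where the lowest pileup of a shared region was 16.0, so weak control regions enter only with high ratios. At a control pileup of at least 60, where few regions were lost, the median was -0.95 for 120 noncoding regions, -0.91 at coding ends and -0.94 near no gene end, leaving out regions of high local background. The quartiles at noncoding ends, -1.10 and -0.76, span the other medians.

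**Figure D2:**
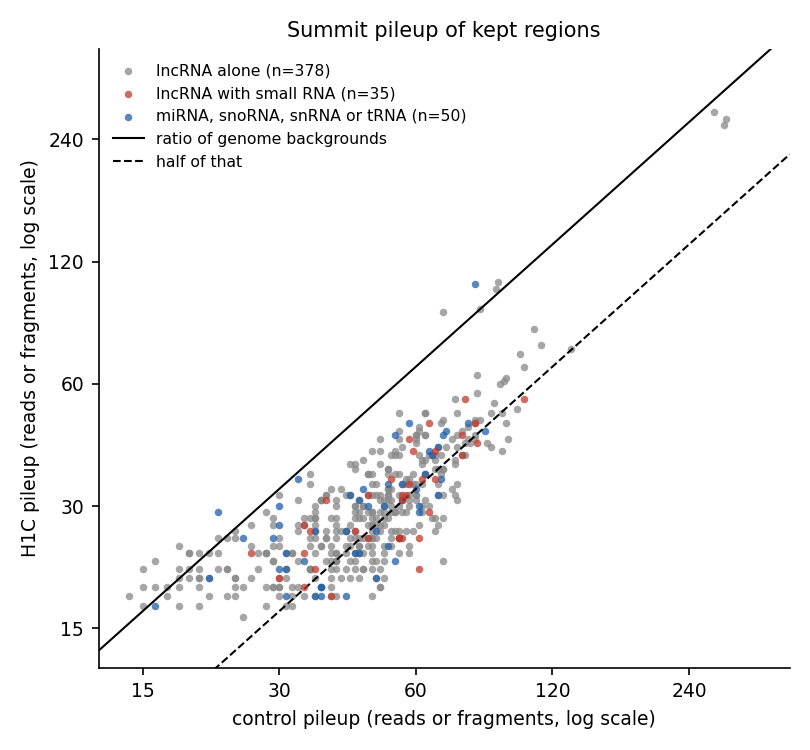
Summit pileup of the 463 kept control regions in control (horizontal) and in the overlapping H1C region (vertical), in reads or fragments on log axes. Grey points are regions at lncRNA ends alone, red points lncRNA with a small RNA, and blue points small RNAs. The solid line is the ratio of genome backgrounds, 1.10, and most points lie below it, many of them near the dashed line, which is drawn at a log2 ratio of -1.

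The kept share also differed by distance to the gene end, beside differences in height and width. Of control regions that covered an annotated end, 260 of 572 were kept (45.5%, interval 41.3% to 49.6%), with a median pileup of 36.0 and a median width of 419 bp. All control regions at the same pileups were kept in 44.6%. Here and below, such a share gives each region the kept share of all control regions in its pileup step, and averages these. Height can still differ within a step. Regions lying 1 to 200 bp from an end were kept in 44 of 231 cases (19%, 14.2% to 24.7%), with medians of 26.0 and 298 bp, and all control regions at the same pileups in 27.9%. Just inside the limit of the rule, more than 800 bp away, 33 of 169 control regions were kept (19.5%, beside 25.3% at the same pileups), and just outside it, at 1002 to 1200 bp, 34 of 164 were kept (20.7%, beside 27.7%).

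By position, 519 control regions (32.7%, interval 30.4% to 35.1%) lay inside a protein-coding gene and 1068 outside. The kept share was 30.8% (26.9% to 35.0%) inside and 28.4% (25.7% to 31.2%) outside, and these intervals overlap. All control regions at the same pileups as the inside regions were kept in 36.9%, and those at the pileups of the outside regions in 31%. The median log2 ratio of kept regions was -0.86 inside and -0.82 outside.

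By chromosome, the kept share ran from 19% of 100 control regions on chromosome 13 to 38.5% of 104 on chromosome 7. The share for all control regions was 30.8% on chromosome 13 and 37.3% on chromosome 7. Pileups were not matched between chromosomes.

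Most of the regions lay near ends of lncRNA genes. Of 12697 lncRNA genes in the table, 1296 (10.2%) had a control region, and 408 of these also had an H1C region. Since 140 lncRNA genes had more than 1 control region, regions of a gene are not independent. Regions near lncRNA ends alone were kept in 378 of 1349 cases (28.0%, interval 25.6% to 30.5%), whereas all control regions at the same pileups were kept in 31.9%. Regions at a 5′ end were kept in 218 of 695 cases (31.4%) and regions at a 3′ end in 54 of 277 (19.5%). At the same pileups, all control regions were kept in 33.3% and 26.4%. In the step above 40 up to 60 the shares were 76.0% of 121 (67.4% to 83.3%) at 5′ ends and 43.6% of 39 (27.8% to 60.4%) at 3′ ends, and these intervals do not overlap. In the steps below 30 no such gap was seen. Above 30 up to 40 the intervals overlapped. They were 27.7% to 44.6% at 5′ ends (48 of 134) and 12.7% to 41.2% at 3′ ends (10 of 40). Above 60 up to 80, 32 of 33 regions at 5′ ends and all 6 at 3′ ends were kept. Above 80 all 19 and all 3 were kept. The gap was thus shown only in the step above 40 up to 60.

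Differences by evidence and naming were of the size seen for all control regions at the same pileups. LncRNA genes with a curated transcript had 34.3% of 470 regions kept, and genes with a model transcript 24.7% of 879, beside 37.6% and 28.8% of all control regions at the same pileups. Genes with a name of their own had 36 of 74 kept (48.6%), and genes with a provisional name 26.8% of 1275. For these the shares at the same pileups were 49.3% and 30.9%. The share fell with distance to the nearest coding gene end, from 35.2% of 281 regions at 1 to 5 kb to 22.8% of 123 beyond 100 kb, beside 40.6% and 23.8% of all control regions at the same pileups. The median pileup fell from 33.0 to 23.0 alongside.

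Of 51 kept regions of the genes named by rank or from the lists, 50 had a log2 ratio below 0 and 41 an interval wholly below 0 when scaled by genome background. When scaled by local background these counts were 47 and 22. The values given for single genes are scaled by genome background.

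Among lncRNA genes with their own names, the highest kept region without high local background was at the 5′ end of Mir22hg, the host of miR-22, at chr11:75461090-75461765. Its pileup was 104 in control and 66 in H1C, a log2 ratio of -0.80 (interval -1.27 to -0.34). Its fold over local background was 6.15 in control. A second Mir22hg region, 778 bp upstream of the gene start at chr11:75460482-75460761, had a control pileup of 71 and no overlapping H1C region. Of the 2 Mir22hg regions, the one over the start was kept and the one upstream was not.

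Chaserr, a lncRNA beside Chd2 that is known to restrain that gene, had a region over its start with a pileup of 95 in control and 62 in H1C (log2 ratio -0.76, -1.24 to -0.28). Hk1os, inside the hexokinase gene Hk1, had 82 and 57. Zbtb11os1, inside Zbtb11, had 81 and 44, a log2 ratio of -1.02. All 3 were lower in H1C.

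Malat1, an abundant nuclear lncRNA, showed a split pattern. The region 447 bp upstream of its start had a pileup of 74 in control and 34 in H1C, a log2 ratio of -1.26 (-1.89 to -0.66). At the start itself, chr19:5802570-5802769, a region of 200 bp was called in H1C alone, with a pileup of 32 and a fold of 3.55. It was the highest of the 61 regions in H1C alone. Neat1, which builds paraspeckles and lies near Malat1, had 64 in control and 40 in H1C (log2 ratio -0.82), at a local background 5.84 times the genome background in control.

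The highest pileups lay in regions of very high local background, and there the libraries differed less. The region by AY036118 on chromosome 17 had a pileup of 290 in control and 270 in H1C, where its control local background was 35.8 times the genome background. The region by 2700054A10Rik had 272 and 281, a log2 ratio of -0.10 (interval -0.34 to 0.15), at 9.26 times the genome background. When scaled by local background both regions were above 0, at 0.10 and 0.25. The 5 kept regions of high local background, Neat1 among them, had a median log2 ratio of -0.28, and leaving out the 7 such control regions left the median of all kept regions at -0.84.

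From the list of stem cell and imprinted lncRNAs, 18 of 41 matched genes had a control region and 9 of these also had an H1C region. For 1 more gene the only control region lay at a coding gene end, outside the rule. Over all lncRNA genes with a control region, 31.5% had both (interval 29.0% to 34.1%), and pileups were not matched between the list and these genes. The 9 with both were Crnde, Dubr, Kcnq1ot1, Lncpint, Lockd, Malat1, Mir22hg, Neat1 and Oip5os1. Kcnq1ot1, the antisense RNA that silences genes of its imprinted cluster, had 59 in control and 34 in H1C (log2 ratio -0.94, -1.59 to -0.30). Oip5os1, also known as Cyrano, had 48 and 27. Lockd, downstream of the cell cycle inhibitor gene Cdkn1b, had 53 and 33, and Dubr had 54 and 29. Crnde had 41 and 33, with an interval of -1.16 to 0.24 that includes no change. Lncpint had 28 and 29, a log2 ratio of -0.09 that became 0.25 when scaled by local background, and was the member of this list nearest to 0.

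The other 9 had a region in control alone. Peg13, an imprinted RNA inside Trappc9, had a control pileup of 37. Jpx, an activator of Xist, had 35. Firre, an X-linked RNA of nuclear organisation, had 30, and Hotairm1, in the Hoxa cluster, had 22. Morrbid, which controls the life span of short-lived myeloid cells through Bcl2l11, had 33. None of these 5 exceeded the pileup of 40 below which most regions were lost. Ftx, beside Xist, had 1 control region, with a pileup of 60, that overlapped an H1C region of pileup 32 lying outside the limit of 1000 bp, and a second, with a pileup of 25, without overlap. Mirt2, Platr22 and Trp53cor1 completed the group, and the regions of Trp53cor1, the lncRNA-p21 gene beside Cdkn1a, had pileups of 37 and 18.

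Regions that lay near ends of both a lncRNA and a small RNA gene were kept most often. Of 52 such control regions, 35 were kept (67.3%, interval 52.9% to 79.7%). All control regions at the same pileups were kept in 57.5%, a value inside that interval. Their median pileup was 47.0. With a snoRNA, 13 of 16 were kept, with an snRNA 6 of 8, with a tRNA 13 of 22 and with a miRNA 3 of 6. In H1C all 36 regions of this kind overlapped a control region.

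From the list of host genes of small RNAs, 16 of 30 matched genes had a control region and 15 of these had an H1C region. For another 6 the only control region lay at a coding gene end, outside the rule. Over all lncRNA genes, 10.2% had a control region and 31.5% of these had both, and pileups were not matched between these sets. The kept host regions had control pileups from 34 (Snhg20) to 104 (Mir22hg), beside a median of 28.0 for all control regions at lncRNA ends. Mir155hg had a region in control alone. Snhg8, which carries the snoRNA Snora24, had a pileup of 81 in control and 48 in H1C (log2 ratio -0.90, -1.44 to -0.36). Dancr, which carries Snora26, had 77 and 55 (log2 ratio -0.63, -1.15 to -0.11). Both intervals lay below 0, but when scaled by local background that of Dancr was -0.81 to 0.24 and included 0.

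The remaining hosts covered a range of ratios. Snhg17 was lowest, with 50 in control and 19 in H1C (log2 ratio -1.54, -2.38 to -0.75). Snhg5 had 64 and 29, Snhg16 had 55 and 25, and the 5′ region of Snhg7 had 55 and 25, each with a log2 ratio of -1.28. Snhg3 had 47 and 25, and Epb41l4aos had 53 and 35. Dleu2, the host of miR-15a and miR-16-1, had 57 and 29 at its start (log2 ratio -1.12). Smaller differences were seen at Snhg9 (64 and 48), Snhg15 (58 and 44), Snhg20 (34 and 27) and Snhg12 (38 and 31, log2 ratio -0.44, -1.17 to 0.29), and each of these 4 intervals includes 0. Snhg7 and Snhg12 each had a second, weaker control region without overlap, with pileups of 35 and 24. Snhg4 had a control region of 44 at its start and an H1C region of 18 placed 356 bp away that did not overlap it.

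**Figure D3:**
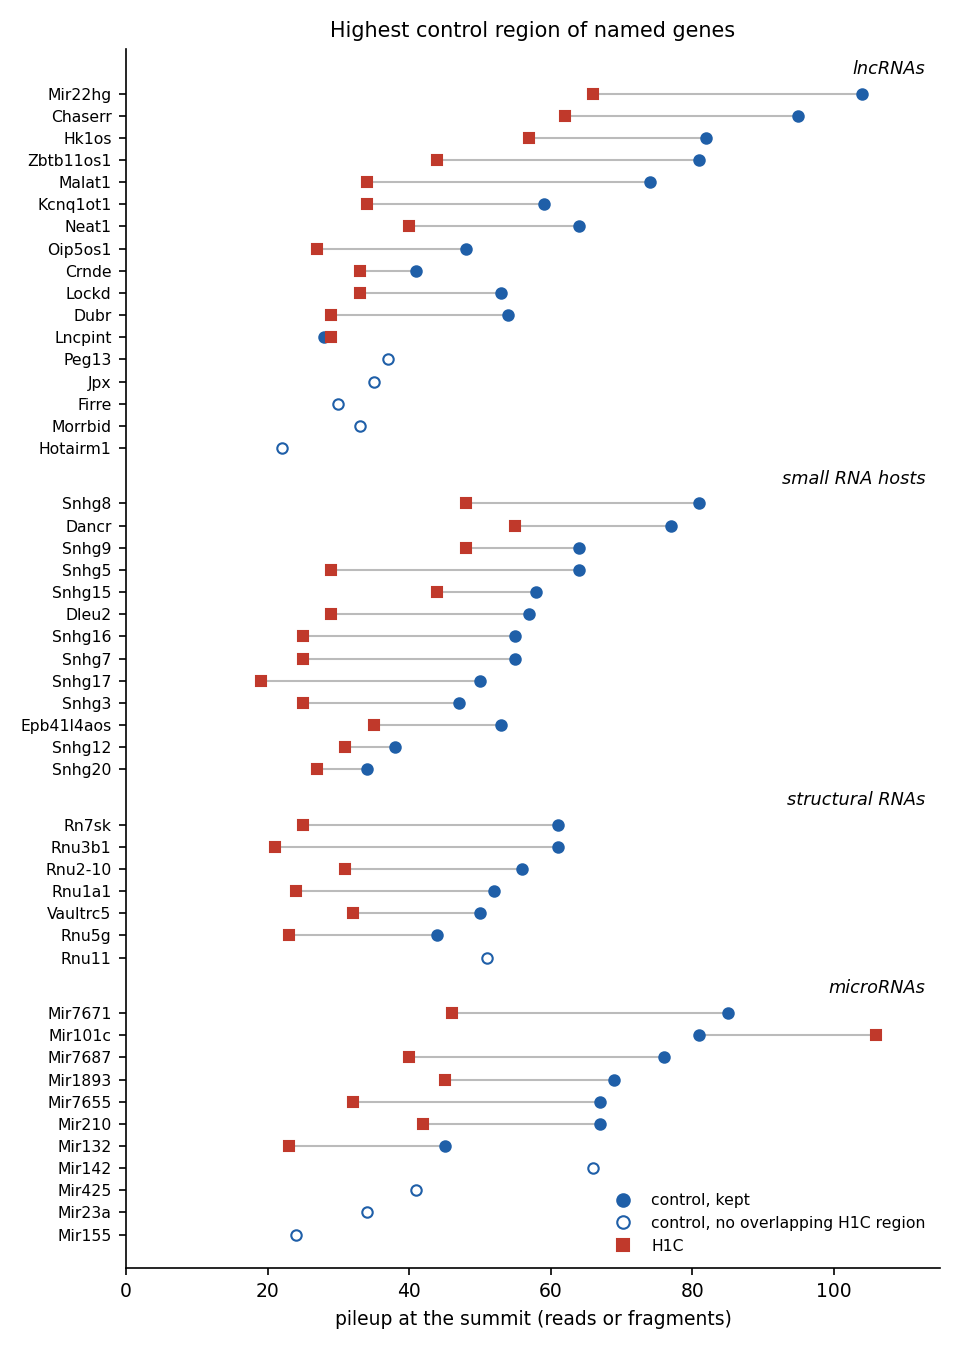
Pileup at the summit (reads or fragments, horizontal axis) of the highest control region of selected lncRNA, host, structural RNA and microRNA genes described in the text (blue circles, open where no H1C region overlapped) and of the overlapping H1C region (red squares). Other genes of the text, such as Ftx, Trp53cor1, Snhg4 and Mir155hg, are left out. Red squares lie to the left of their blue circles except at Lncpint (28 and 29) and Mir101c (81 and 106), and AY036118 and 2700054A10Rik, at 290 and 272 in control, lie beyond the axis and are not drawn.

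Of 1296 lncRNA genes with a control region, 1004 had a promoter sequence in the table, and for 445 of them at least 1 base of the window of 300 lay under the region. Kept promoters were richer in CpG. The 205 kept promoters had a median of 19 CpG dinucleotides and 60.7% GC, and the 240 under a region in control alone had 8.00 CpG and 53.2% GC. All lncRNA promoters of the table had a median of 4.00 CpG, and coding promoters under a control region had 23.0. The same order was seen within pileup steps, inside which height was not matched further. At a pileup above 20 up to 40 the medians were 16.0 for 54 kept and 8.00 for 152 lost promoters. Above 40 up to 60 they were 16.5 for 90 and 10.5 for 20.

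By CpG count, 22 of 84 lncRNA promoters with 0 to 4 CpG were kept (26.2%, interval 17.2% to 36.9%), 56 of 176 with 5 to 14 (31.8%, 25% to 39.2%) and 127 of 185 with 15 or more (68.6%, 61.4% to 75.3%). At a pileup above 20 up to 40 the shares were 22.0%, 16.1% and 44.4%, and the median pileups within that step were 29.0, 28.0 and 34.0. Above 40 up to 60, 8 of 10 were kept (interval 44.4% to 97.5%), and then 76.2% (60.5% to 87.9%) and 86.2% (74.6% to 93.9%), with overlapping intervals, and above 60 all of the 3, 7 and 47 promoters were kept, so no difference by CpG was shown at those heights. Coding promoters in these classes at a pileup above 20 up to 40 were kept in 15.7%, 33.1% and 45.7%. In the class with 15 or more CpG, the intervals at that height of lncRNA (31.9% to 57.5%) and coding promoters (43.1% to 48.2%) overlapped. Kcnq1ot1, kept with 9 CpG, and Jpx, in control alone with 27, show that the classes overlap.

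**Figure D4:**
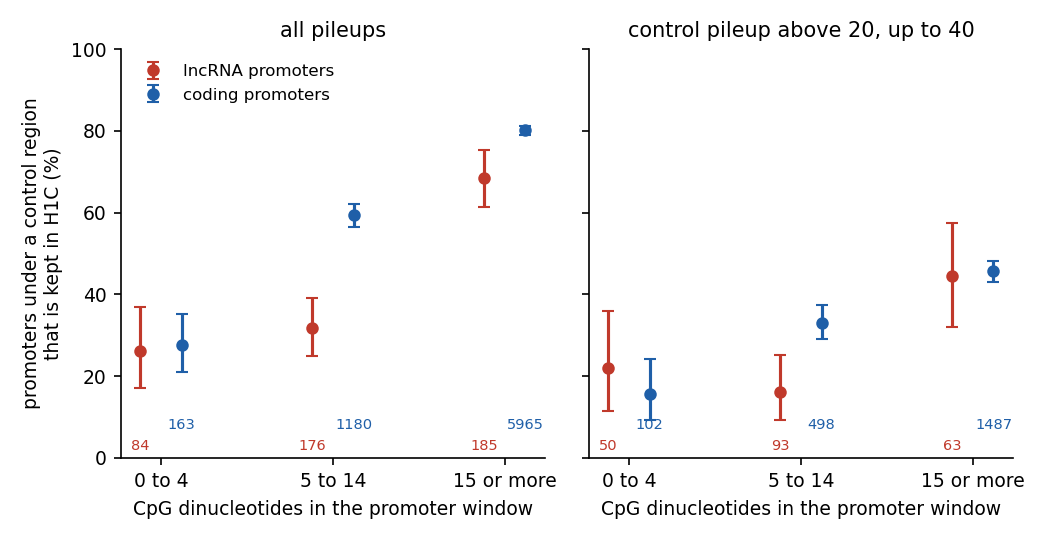
Share of promoters under a control region that was kept in H1C (percent, vertical axis) by number of CpG dinucleotides in the promoter window, for lncRNA (red) and coding (blue) promoters, at all pileups (left) and at a control pileup above 20 up to 40 (right). Bars are exact 95% intervals and small numbers the promoters in each class. The red points stand highest at 15 or more CpG, at 68.6% on the left and 44.4% on the right.

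Letter patterns of known motifs were searched on both strands of each window, and patterns that overlap each other were each counted. The SP/KLF GC box GGGCGG, which itself holds a CpG, was in 61% of kept lncRNA promoters (interval 53.9% to 67.7%) and in 28.3% of lost ones (22.7% to 34.5%), beside 16.3% of all lncRNA promoters (15.7% to 17.0%) and 35.9% of all promoters. Lost promoters thus also held it more often than lncRNA promoters at large. Those shares joined all pileups. At a pileup above 20 up to 40, the GC box was in 28 of 54 kept promoters (37.8% to 65.7%). It was in 38 of 152 lost ones there (18.3% to 32.7%). Above 40 up to 60 it was in 50 of 90 kept (44.7% to 66%) and 8 of 20 lost ones (19.1% to 63.9%). These last intervals overlapped, so no difference in the GC box was shown at that height. In the printed windows it stands in Chaserr, Snhg8 and Jpx and in neither Kcnq1ot1 nor Morrbid. For the other patterns, all means all lncRNA promoters. The NFY pattern CCAAT was in 35.1% of kept and 30.8% of lost promoters, beside 35.9% of all, with overlapping intervals. The ETS core CCGGAAG was in 11.2% and 7.08% (all 3.9%), the RUNX pattern TGTGGTT in 5.37% and 10.0% (all 6.3%), the AP-1 pattern TGACTCA in 6.83% and 10.8% (all 6.2%) and GATAAG, the GATA pattern, in 3.41% and 6.25% (all 8.42%). The intervals of kept and lost promoters overlapped for each of these 4. CACGTG (the E-box, all 5.9%), TATAAA (the TATA box, all 15.5%), TGACGTCA (CRE, all 0.976%), AAGATGGCG (YY1, all 0.613%) and the NRF1 pattern (all 0.311%) also had overlapping intervals. A match describes letters in the window and not bound protein.

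MicroRNA genes had a control region in 50 of 1228 cases, and 17 of these also had one in H1C. Regions near miRNA ends alone were kept in 13 of 39 cases (33.3%, interval 19.1% to 50.2%), and all control regions at the same pileups in 38.5%. More of them lay inside coding genes, 22 of 39 (56.4%, interval 39.6% to 72.2%), than of regions near lncRNA ends alone (33.7%, 31.1% to 36.2%). From the list of blood microRNAs, 8 of 54 matched genes had a region. For 2 others the only control region lay at a coding gene end, outside the rule. The 2 genes with a region in both libraries were Mir132 and Mir212. Their shared region at chr11:75173229-75173790 had a pileup of 45 in control and 23 in H1C (log2 ratio -1.11, -1.90 to -0.35). Both microRNAs carry the printed seed AACAGUC.

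The other 6 blood microRNA genes with a region under the rule had it in control alone. Mir142, whose microRNA is abundant in blood cells, had a control pileup of 66 and a fold of 2.71, at a local background 5.95 times the genome background. Mir425 had 41, inside Dalrd3. The shared region of Mir23a, Mir27a and Mir24-2 had 34, with a fold of 2.68. Mir155, a regulator of immune cells, shared with Mir155hg a region of 24. Outside the list, Mir210, known as a microRNA of the hypoxia response, had 67 in control and 42 in H1C (log2 ratio -0.82, -1.41 to -0.24), and Mir7671, near Irf1, had 85 and 46. Mir101c was the named microRNA gene with a higher value in H1C, 81 in control and 106 in H1C, with a log2 ratio of 0.25 and an interval of -0.18 to 0.68 that includes no change. When scaled by local background its ratio was 0.59 (0.16 to 1.03). The region lay 352 bp from Mir101c and 296914 bp from the nearest coding gene end, at a local background 2.95 times the genome background in control. Whether its reads can be placed at 1 position only was not tested. Mir1893, Mir7655 and Mir7687, inside Epc1, Mllt10 and Gse1, had 69 and 45, 67 and 32, and 76 and 40.

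SnoRNA genes away from lncRNA ends had the weakest regions. The median pileup of 30 such control regions was 17.0, and 5 were kept (16.7%, interval 5.64% to 34.7%), beside 15.2% of all control regions at the same pileups. Of all 1340 snoRNA genes, 50 had a control region and 19 of these had one in H1C. Snord49b, whose region also lay near an end of the lncRNA gene 2410006H16Rik, had 76 in control and 45 in H1C (log2 ratio -0.90). Snora17, in the weaker Snhg7 region, had 35 and no overlap. The region of Gm23446, whose nearest coding gene is Snrpn, was called in H1C alone with a pileup of 26.

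Near snRNA ends alone, 14 of 50 control regions were kept (28.0%, interval 16.2% to 42.5%), beside 37.2% of all control regions at the same pileups. From the list of stable structural RNAs, 7 of 13 matched genes had a control region and 6 of these had an H1C region. For another 3 the only control region lay at a coding gene end, outside the rule. Over all 1003 snRNA genes, 49 (4.89%) had a control region and 20 of these had both. The list also held the lncRNA gene Vaultrc5, so it was not made of snRNA genes alone, and pileups were not matched. Rn7sk, the 7SK RNA that holds the elongation factor P-TEFb inactive, had 61 in control and 25 in H1C (log2 ratio -1.43, -2.16 to -0.74). Rnu3b1, a U3 RNA gene of ribosomal RNA processing, had 61 and 21 at its main region (log2 ratio -1.68, -2.47 to -0.94). That region also lay near LOC115487798 and Gm23137. A second Rnu3b1 region had a control pileup of 32 and no overlap. The interval of the main Rnu3b1 region lay wholly below -0.84, the median of all kept regions, and that of Rn7sk did not.

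Spliceosomal RNA genes showed a similar direction. Rnu1a1, a U1 gene, had 52 and 24 (log2 ratio -1.26). Rnu2-10, a U2 gene, had 56 and 31 at its main region (log2 ratio -1.0) and 40 at a second region without overlap. Rnu5g, a U5 gene, had 44 and 23 (log2 ratio -1.08). Rnu11, of the minor spliceosome, had a control pileup of 51 and no overlapping H1C region, which made it the highest snRNA region in control alone. Vaultrc5, a vault RNA that the table gives as a lncRNA, had 50 and 32 (log2 ratio -0.79). Copies of snRNA genes are near identical, so the split of reads among copies is uncertain.

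Among the 5 biotypes, transfer RNA genes most often had a region under the rule. Genes with regions only near coding gene ends counted as without one, which can lower the share of each biotype to an unequal degree. Of 408 tRNA genes, 119 (29.2%) had a control region, beside 10.2% of lncRNA genes, and 55 of the 119 (46.2%, interval 37.0% to 55.6%) also had an H1C region. Since 26 of the genes had more than 1 control region and clustered genes share regions, these genes are not independent. By region, 18 of 66 near tRNA ends alone were kept (27.3%, interval 17.0% to 39.6%), beside 36.6% at the same pileups. Of these regions 60 of 66 lay outside coding genes (90.9%).

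The highest tRNA region held n-TQttg6, a glutamine tRNA gene on chromosome 11, with 104 in control and 55 in H1C (log2 ratio -1.06, -1.56 to -0.58). The threonine gene n-TTcgt3 had 82 and 43 (log2 ratio -1.07), and the alanine gene n-TAagc8 had 70 and 46 (log2 ratio -0.75). The regions of n-TQttg6 and n-TTcgt3 also lay near lncRNA ends, and that of n-TAagc8 lay 124 bp from its gene. In control alone, regions over n-TDgtc9 and n-TLcag4 had 57 and 56, and a region beside n-TCgca52, which covered an end of Trmt61b, a lncRNA gene in the table, had 59. In H1C alone, n-THgtg8 had a region with a pileup of 30 and n-TKctt15 one of 22. The 3 kept regions were all lower in H1C. In the step above 40 up to 60, which held the 3 regions in control alone, 6 of 14 regions near tRNA ends alone and 13 of 15 regions shared by a lncRNA and a small RNA were kept.

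By amino acid, 17 of 25 leucine and 11 of 16 proline tRNA genes had a control region, and 8 and 7 of these had both. All 4 histidine and all 4 tyrosine genes with a control region also had an H1C region. Of 56 cysteine genes 1 had a control region. None of the 53 tRNA genes on chromosome 6 and none of the 17 on chromosome X had one, whereas 20 of 52 on chromosome 11 and 29 on chromosome 13 did. Lysine genes had 5 with a control region, 0 with both and 2 with an H1C region alone. Near identical tRNA copies limit how reads can be placed, so a gene without a region is not shown to be closed.

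**Figure D5:**
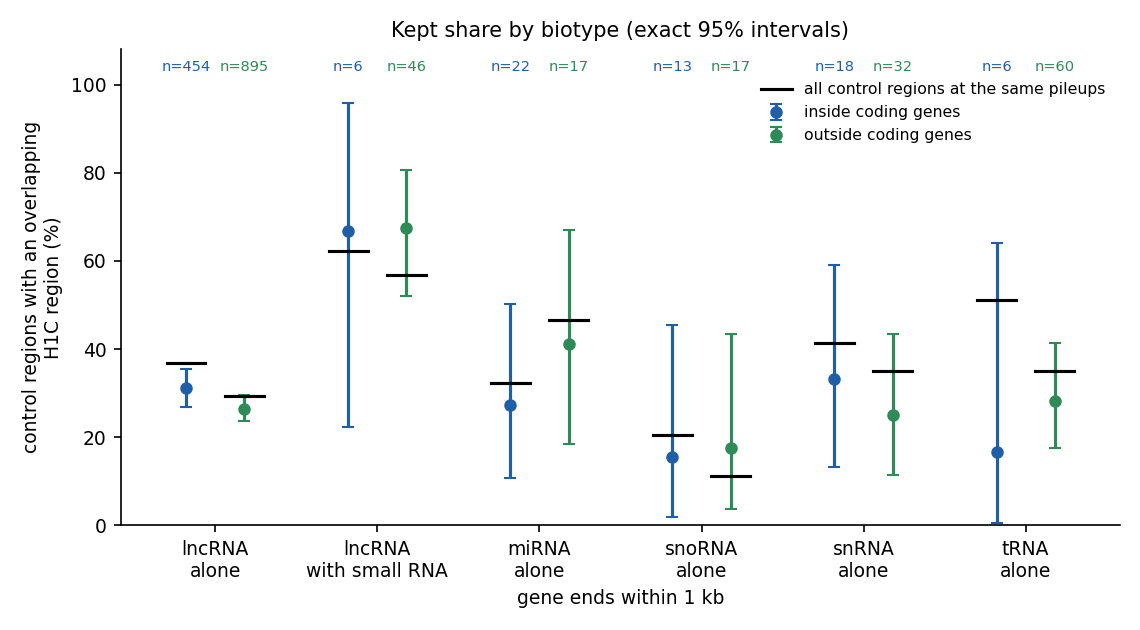
Share of control regions with an overlapping H1C region (percent, vertical axis) by biotype of the gene ends within 1000 bp, inside (blue) and outside (green) coding genes. Points are shares, bars exact 95% intervals, black lines the share of all control regions at the same pileups, and n the control regions. LncRNA regions shared with a small RNA stand highest, at 66.7% inside and 67.4% outside.

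Across both lists, the solved genome background was 3.99 in control and 4.40 in H1C, so H1C had the higher background and fewer regions. Of 12 marker genes of hematopoietic stem cells, 7 had a coding gene-end region in control and 1, Runx1, in H1C. Of markers of other cells, 3 of 4 lymphoid, 1 of 4 granulocyte, 0 of 3 erythroid and 2 of 4 stromal and endothelial genes had one in control, and 1, 1, 0 and 0 did in H1C. Of all 10145 control regions at coding gene ends, 62.9% were kept. The share of all coding genes with such a region in each list is not given here. The marker counts therefore show no loss particular to these genes. The part of other cell types in the results was not tested, and the lists hold no expression values to check H1C itself.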

How the data were processed

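One ATAC-seq library per group was read from the deposited list of regions of that library. The submitters' processing notes name MACS2, featureCounts, Picard, Bowtie2 (2.2.9) and Trim Galore (0.4.4), with build mm10. Their roles and settings, the handling of duplicates and any shift to the transposase cut site are not given in the sources used here, and either could alter pileups and summits. Regions were called by the authors per library, 1 list each. The deposited fold is a ratio of summit pileup to local background, after 1 is added to both. Columns of −log10 p and of −log10 q were deposited as the peak caller wrote them. The deposited score was not used, and the deposited summit offset counts bases from the region's start.

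Pileup and local background were solved for each entry from its fold and its −log10 p under a Poisson model, to a relative tolerance of 0.0001, in 32005 of 32005 control and 13156 of 13156 H1C entries. The lists give no read totals, so the lowest local background (genome background) stood for depth. High local background meant at least 5 times that value. Gene ends, biotypes and sequences came from RefSeq tables of GRCm38. LncRNA strand was known where a promoter sequence was given. The solver, the classes and the overlap were tested on simulated data. Computations ran in Python 3.11.15 with scipy 1.17.1, pandas 2.3.3 and numpy 2.4.6, and plots in matplotlib 3.10.9. Shares have Clopper-Pearson intervals and pileup ratios conditional binomial intervals.

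The regions and lists were chosen with earlier results of these data known. Genes were named by rank of pileup within each biotype among kept regions, regions in control alone and regions in H1C alone, leaving out provisional lncRNA names except for the top 2. Genes of 4 lists were added (blood microRNAs, hosts of small RNAs, stem cell and imprinted lncRNAs, structural RNAs). Pileup steps and CpG classes were set with the values in view. Alternatives covered the window, the position used, name filters, thresholds, overlap rules, list length and scale.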

Additional observations from a re-analysis of the deposited data

How the results depend on the processing

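No paired analysis was possible because there was only 1 library in each group. Of 62 values under 11 alternative settings, 35 stayed within their interval (counts within 1.5 times, log2 ratios within the quartiles), 27 moved and 0 reversed. Kept shares are given for all control regions and then for control lncRNA regions. With a window of 500 bp they were 34.4% and 34.8%, and 35.2% of control regions lay inside coding genes. With 2500 bp the kept shares were 24.7% and 24.8%, and 81.3% of H1C regions were shared. With regions near coding ends included, there were 2908 control and 1477 H1C regions, kept shares of 47.8% and 48.0%, 95.1% shared and 60.5% inside coding genes. With own-named lncRNA genes only, there were 312 control and 135 H1C regions, kept shares of 38.8% and 53.3%, 91.9% shared and 27.2% inside. Requiring −log10 q of 5 or more in each list gave 93.3% shared. Reciprocal overlap of 50% gave kept shares of 22.8% and 23.4% and 67.2% shared, and summits within 200 bp gave 80.9% shared. With lists of equal length the kept shares were 58.8% and 59.0%, and 72.5% were shared. Scaling by the local background at shared summits (ratio 0.869) moved the median log2 ratio from -0.84 to -0.50. The cause was not tested, except that the window, name, threshold and length settings change which regions enter by construction. Depth in reads is unknown, and a region absent from a list may hold signal below the peak caller's threshold. With 1 library per group, differences between animals, transductions or libraries cannot be told apart from that between groups.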

Other observations

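Outside the rule, regions within 1000 bp of an end of other noncoding genes (such as rRNA, antisense RNA, RNase P, RNase MRP and telomerase RNA genes), and of no coding or listed noncoding gene, were few. There were 16 of 31831 in control (0.0503%, interval 0.0287% to 0.0816%), of which 5 were kept, and 5 of 13001 in H1C (0.0385%, 0.0125% to 0.0897%), of which 5 overlapped a control region.

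The kept control regions with the lowest and the highest pileup ratio, chosen after their values were seen, were both at lncRNA genes with provisional names. The region of A930006K02Rik on chromosome 16 had a pileup of 69 in control and 22 in H1C. The region of Gm29796 on chromosome 7 had 15 in control and 21 in H1C.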
